A study of Mus musculus with 6 samples.

Results

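The subunits, activators and assembly factors of the proteasome were compared between Phf6 knockout and Phf6 wild-type leukaemia. Members were the rows of the deposited gene table whose symbol starts with Psma, Psmb, Psmc, Psmd, Psme, Psmf or Psmg followed by a digit, without pseudogene (-ps) names and with a mean value of at least 10. They numbered 49 of 23306 genes. Psmb11, the thymus-specific catalytic subunit, matched by symbol but had a mean of 5.1 and was left out, and the member nearest to the minimum on the other side was Psmg3, with a mean of 536. One member, Psmc3ip, is a meiotic recombination factor that shares the symbol stem and is not a proteasome subunit, so 48 members act in or on the proteasome.

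The 6 samples were isogenic T-ALL (acute lymphoblastic leukaemia of T cells) of C57BL/6 mice, harvested as tumour from the bone marrow, 3 Phf6 wild type (WT) and 3 Phf6 knockout (KO). Phf6 was deleted by a Cre recombinase induced with intraperitoneal tamoxifen. Injections held tamoxifen or its corn oil vehicle alone, so drug exposure and loss of Phf6 cannot be told apart from the labels. The age of the animals, the promoter that drives Cre and whether each sample is from its own animal are not stated in the labels, so p-values measure only the spread between these libraries, which may be technical.

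As background, the proteasome degrades proteins that carry ubiquitin chains. Its 20S core is a barrel of alpha rings, which gate the entry, and beta rings, which hold the proteolytic sites of Psmb5, Psmb6 and Psmb7. In lymphoid cells and under interferon gamma these sites are replaced during assembly by Psmb8, Psmb9 and Psmb10, which gives the immunoproteasome and peptides suited to MHC class I. The 19S particle, with a base of ATPases that unfold substrates and a lid that removes ubiquitin, caps the core, and the 11S activators and PA200 are alternative caps.

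Polyadenylated RNA was sequenced as paired ends of 150 bp. Reads in genes numbered 46067511 to 54953145 per library, and every member passed the filter on low values. Members held 0.611%, 0.662% and 0.629% of these reads in WT libraries 1 to 3 and 0.611%, 0.616% and 0.557% in KO libraries 1 to 3. These shares overlapped between the groups. Phf6 (ENSMUSG00000025626) had normalised reads of 5508, 4240 and 5075 in WT libraries 1 to 3 and 1781, 2337 and 1755 in KO libraries 1 to 3 (log2 fold change -1.34 ± 0.13 SE; limma adjusted p = 0.00184), so every KO library was below every WT library. All 10 T-lineage markers listed were present, with a sum of 4669 to 4907 CPM (reads scaled to the library's total in genes) in WT and 3981 to 4784 in KO, and 2 of the 10 fell. For this and the following counts of markers, limma called 3.43% of all genes tested lower and 5.32% higher. Of 16 neutrophil and granulocyte markers 9 rose and none fell, and their sum was 122 to 456 CPM in WT and 1067 to 1348 in KO, with none of the 16 at 0 in any library. The monocyte and macrophage sum was 38.6 to 66.3 against 105 to 143 CPM, with none of 11 markers at 0, and 6 rose. B-lineage markers summed to 3.15 to 4.35 against 7.53 to 18.1 CPM, with Ms4a1 and Ebf1 at 0 in at least 1 library, and 7 of 9 tested rose. Dendritic cell and MHC class II markers summed to 14.6 to 27.1 against 33.1 to 78.5 CPM, with Siglech at 0 in at least 1 library, and 1 of 8 tested rose. Stromal and endothelial markers summed to 490 to 581 against 666 to 858 CPM, with Col3a1 at 0 in at least 1 library. In this list 1 of 4 tested fell and none rose. Nearly all of its sum came from Col1a2 and Pecam1, with means of 24953 and 6982 normalised reads over all libraries. Col1a1 was at 84 and Col3a1 at 1.87, so the sum mainly follows Col1a2 and does not describe the list as a whole. The sums of these 5 lists of other cell types did not overlap between the groups, whereas the erythroid sum did (5.30 to 10.2 against 7.55 to 16.6 CPM). Their part in the results on the proteasome was not tested. Here and below, fewer cells of a type and less RNA per cell cannot be told apart in bulk samples.

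Most proteasome transcripts had lower means in KO, by small amounts. Log2 fold changes, KO minus WT on the scale of log2(normalised reads + 2), were below 0 for 45 of 49 members, against 51.7% of the 17993 genes tested. Their median was -0.18, against -0.01 over all genes tested. That background depended on the level of the genes kept. Raising the filter from 10 to 100 left 12138 genes, whose median was -0.05. Relative to the background median the members stood at -0.17 with the main filter, -0.13 with the raised one and -0.20 with none. The T-lineage markers had a median of -0.22, and the other marker lists had medians above 0. Whether members differed from other genes of similar level was not tested. By limma with Benjamini-Hochberg adjustment over all genes, 1 member passed the threshold of 0.05, the immunoproteasome subunit Psmb8, which fell, and none rose. Over all genes 8.75% were called, 3.43% lower and 5.32% higher, so the count of members called was near the background. At an unadjusted p under 0.05, 17 members were lower, against a share of 12.5% of all genes. EdgeR on the recovered reads called Psmb8 alone (background of lower calls 2.84%), and DESeq2 called Psmb8 and Psmb10 (background 5.02%). With library totals as the only scaling the split of calls over all genes moved from 957 higher and 618 lower to 1217 and 300, no member was called, and 38 members were below 0.

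**Figure D1:**
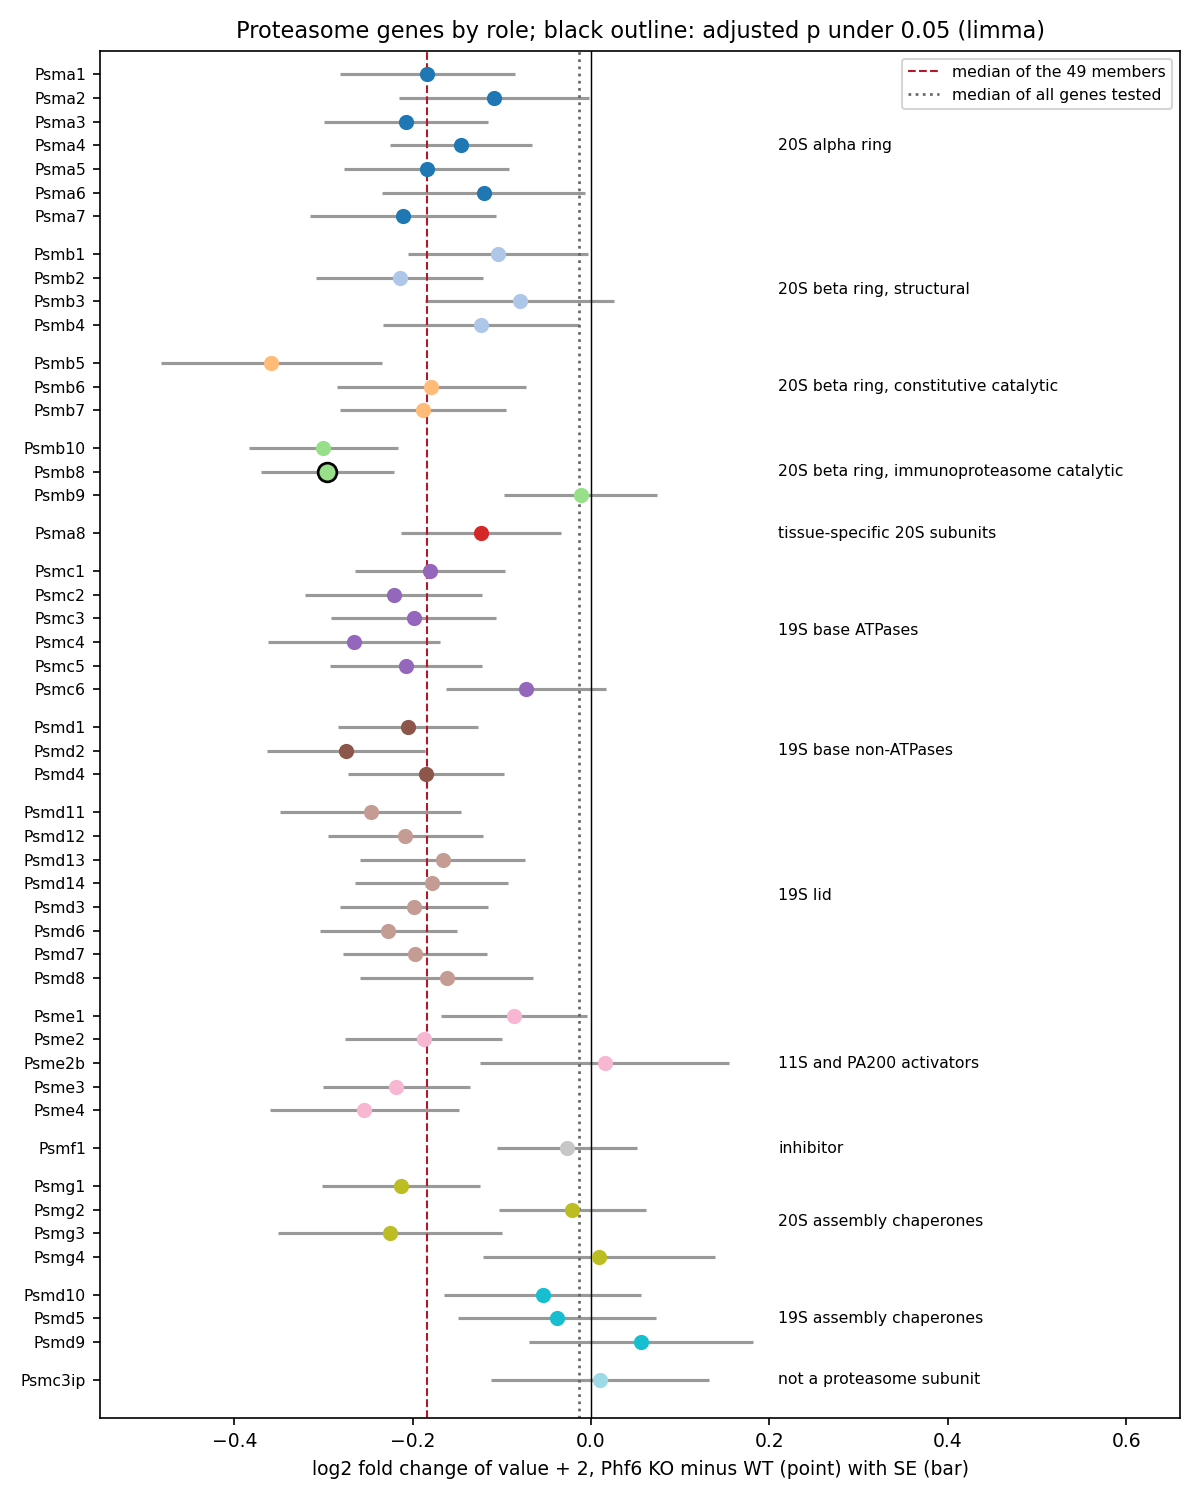
Log2 fold change, KO minus WT, with its SE for each of the 49 members, grouped and coloured by role. The dashed line is the median of the members (-0.18), the dotted line the median of all genes tested (-0.01), and the black outline marks Psmb8, the single member past the adjusted threshold.

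The values of all KO libraries lay below those of all WT libraries for 24 members, and above for none. Over all genes tested the same was true of 16.2% in the lower and 15% in the higher direction. Counts of members with groups apart, here and below, use the deposited scaling. They were not repeated with library totals or upper quartile scaling, so whether they hold there is not known. KO library 3 had the lowest value of all 6 libraries for 42 members, and WT library 2 the highest for 37. The median log2 distance of the members from their WT mean was -0.05, 0.09 and -0.03 in WT libraries 1 to 3 and -0.12, -0.08 and -0.31 in KO libraries 1 to 3. Without KO library 3 the median log2 fold change of the members was -0.11, and 41 were below 0. In an alternative added after seeing the data, each library was left out of the count of members whose KO values were all below WT. The count was 27, 25 and 28 without WT libraries 1 to 3, where the share over all genes was 19.2%, 23.8% and 19.4%. It was 26, 31 and 24 without KO libraries 1 to 3, where that share was 23.3%, 22.5% and 19.2%.

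**Figure D2:**
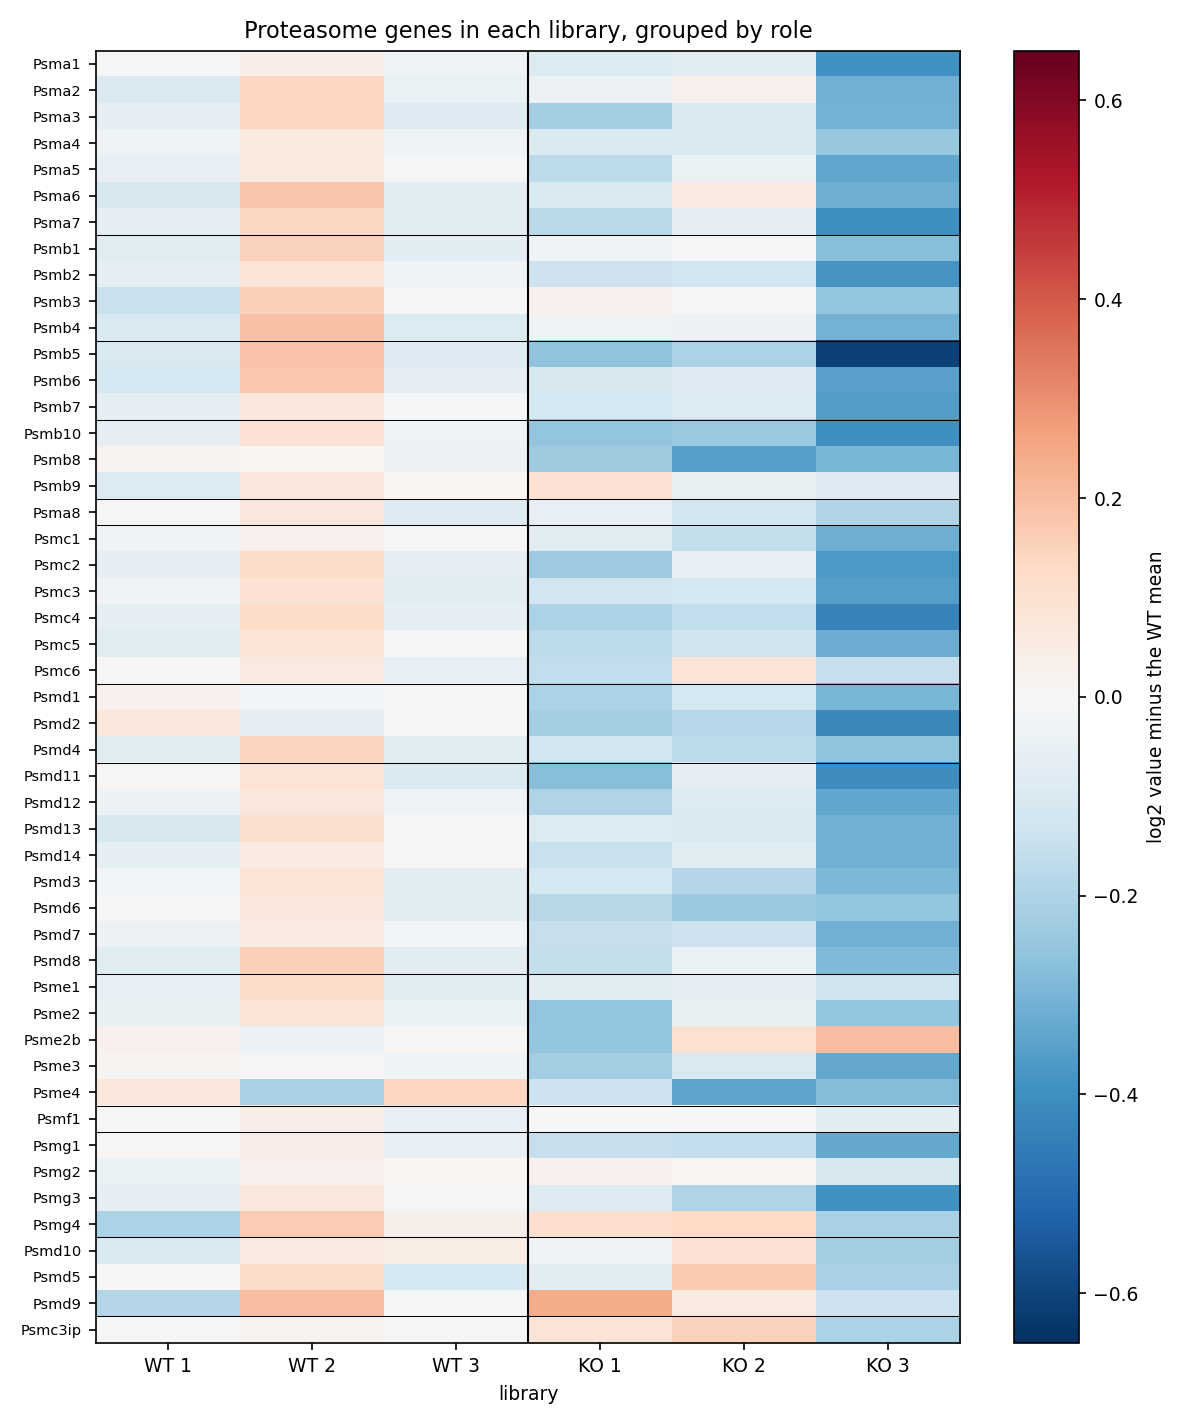
Log2 value of each member in each library minus the mean of the WT libraries, in rows grouped by role with thin lines between the roles. Blue is lower and red is higher; the column of KO library 3 is blue for most members (median -0.31) and the column of WT library 2 is red for most (median 0.09).

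Among the catalytic subunits, Psmb8, which supplies the chymotrypsin-like site of the immunoproteasome (ENSMUSG00000024338; GRCm38 chromosome 17, 34197721 to 34201454, plus strand), had 10715, 10607 and 10268 normalised reads in WT libraries 1 to 3 and 8976, 8217 and 8555 in KO libraries 1 to 3. Every KO library was below every WT library, and the lowest KO value was in library 2, not in library 3 as for most members. The means were 10530 ± 234 and 8583 ± 381 (SD, n = 3 each), and the log2 fold change was -0.30 with an SE of 0.07 (limma adjusted p = 0.0388). Leaving out any 1 of the 6 libraries ended the call, with limma adjusted p between 0.0573 and 0.155 and log2 fold changes between -0.33 and -0.26. With upper quartile scaling the limma adjusted p was 0.0689, and with library totals 0.112.

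Psmb10, which replaces the trypsin-like site (ENSMUSG00000031897; chromosome 8, 105935735 to 105938444, minus strand), had a log2 fold change like that of Psmb8. The lowest value of Psmb10 was in KO library 3, as for most members. Its values were 4938, 5484 and 5034 in WT and 4305, 4347 and 3901 in KO, with no overlap between the groups. The log2 fold change was -0.30 ± 0.08 (SE), and it did not pass in limma (adjusted p = 0.0535) but did in DESeq2 (adjusted p = 0.0335). A transcript of Gm16156 overlaps Psmb10 on the opposite strand and one of Gm20496 overlaps Psmb8, where the strand setting of the counting is not given.

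Psmb9, the immunoproteasome subunit at the caspase-like position (ENSMUSG00000096727; chromosome 17, 34181987 to 34187764, minus strand), had 3316, 3704 and 3554 normalised reads in WT and 3763, 3407 and 3326 in KO. The groups overlapped, the highest of the 6 values was in KO library 1 and the lowest in WT library 1. The log2 fold change was -0.01 ± 0.09 (SE; limma adjusted p = 0.950), and its sign turned with the scaling, to 0.02 with upper quartile scaling and 0.07 with library totals.

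The constitutive subunit Psmb5, which carries the chymotrypsin-like site (ENSMUSG00000022193; chromosome 14, 54614119 to 54618022, minus strand), had 3112, 3788 and 3151 normalised reads in WT and 2779, 2895 and 2191 in KO. No KO value reached a WT value, and the log2 fold change of -0.36 ± 0.12 (SE) was the most negative of all 49 members, without passing the test (limma adjusted p = 0.103). Psmb7, the constitutive trypsin-like subunit, had 4769, 5204 and 4944 reads in WT and 4588, 4678 and 3863 in KO, again without overlap (-0.19 ± 0.09; limma adjusted p = 0.243). Psmb6, the constitutive caspase-like subunit, had 5768, 7053 and 5982 reads in WT and 5816, 5893 and 4894 in KO, where KO libraries 1 and 2 overlapped the WT range (-0.18 ± 0.11; limma adjusted p = 0.330). Without KO library 3 the log2 fold changes of Psmb5, Psmb6 and Psmb7 were -0.23, -0.09 and -0.10, and that of Psmb6 was also -0.09 without WT library 2.

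**Figure D3:**
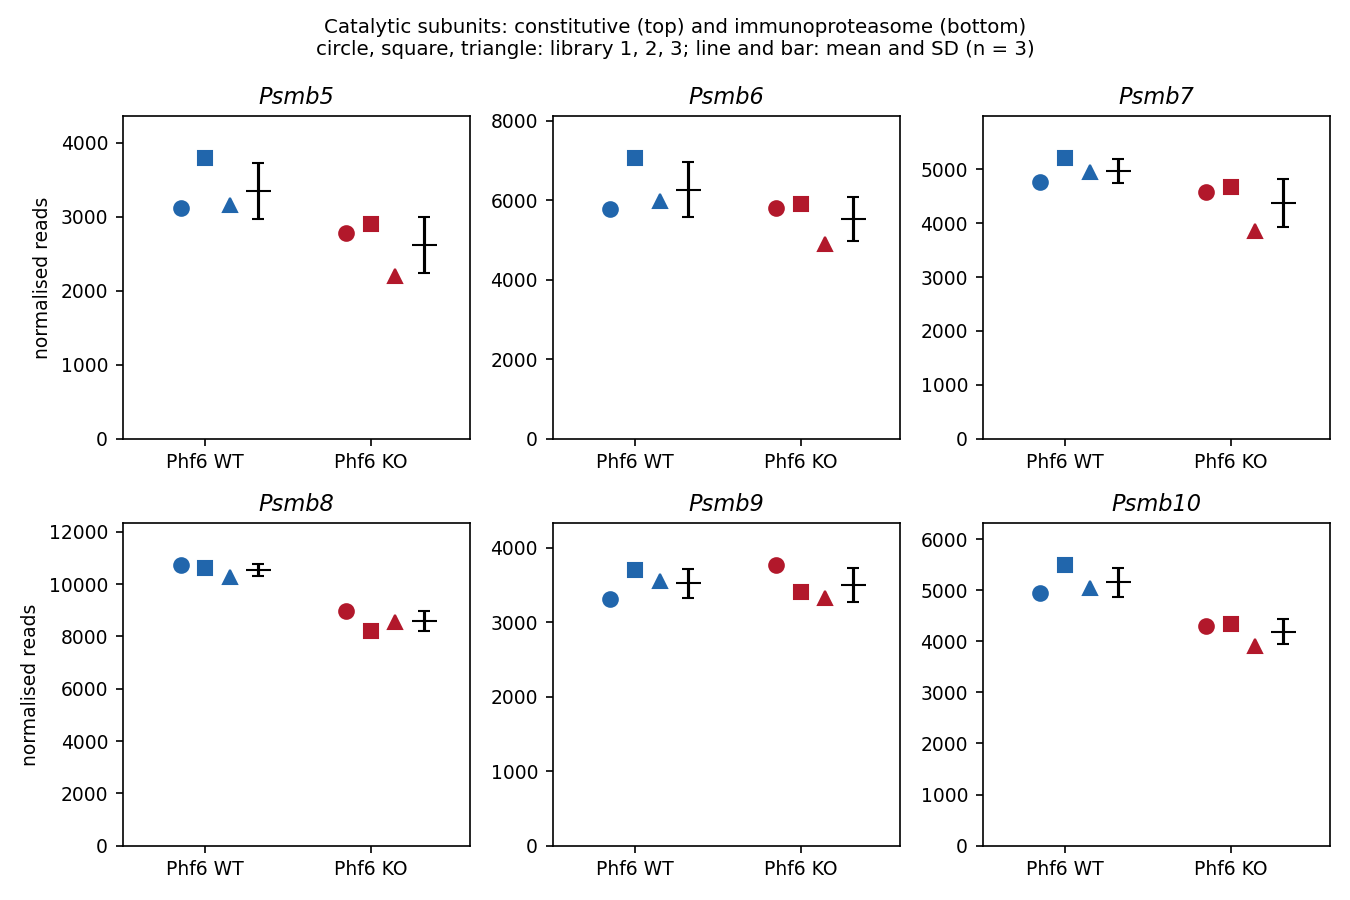
Normalised reads of the constitutive subunits (top) and of the immunoproteasome subunits (bottom) in each library, with WT in blue, KO in red, the marker shape for the library number and the mean with SD (n = 3) beside the points; each panel has its own axis from 0. Psmb8 lies at 10268 to 10715 in WT and 8217 to 8976 in KO, and Psmb9 overlaps between the groups.

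The promoter table of RefSeq (GRCm38.p6) held 41 of the 49 members in 44 entries. The sequence before the start of 3 catalytic subunits is shown to set Psmb5 and Psmb10, whose groups did not overlap, beside Psmb6, whose groups did, with capitals for matches to the motifs below and without the bases that GENCODE M21 places in an exon. Psmb5 is at chr14:54618023-54618245 (minus strand), Psmb6 at chr11:70525107-70525356 (plus strand) and Psmb10 at chr8:105938445-105938642 (minus strand).
Psmb5: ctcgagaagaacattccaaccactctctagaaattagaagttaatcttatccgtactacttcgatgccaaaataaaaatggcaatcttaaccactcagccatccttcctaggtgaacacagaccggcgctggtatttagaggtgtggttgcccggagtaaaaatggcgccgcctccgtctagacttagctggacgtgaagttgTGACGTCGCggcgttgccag
Psmb6: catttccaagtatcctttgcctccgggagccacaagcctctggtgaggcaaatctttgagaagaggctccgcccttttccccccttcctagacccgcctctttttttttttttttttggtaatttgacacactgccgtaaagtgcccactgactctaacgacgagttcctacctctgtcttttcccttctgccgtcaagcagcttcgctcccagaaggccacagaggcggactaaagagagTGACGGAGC
Psmb10: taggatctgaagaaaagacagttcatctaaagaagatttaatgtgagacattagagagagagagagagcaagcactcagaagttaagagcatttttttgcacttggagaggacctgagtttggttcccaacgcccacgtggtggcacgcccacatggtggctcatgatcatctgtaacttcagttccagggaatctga

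The motifs searched on both strands of the 250 bases before each start were the antioxidant response element core TGACNNNGC, through which NRF1 acts on proteasome genes, the CCAAT box, the interferon-stimulated response element core (GAAA, then NN, then GAAA) and the gamma-interferon activation site core TTCNNNGAA. Psmb5 and Psmb6 each held the antioxidant response element core, and no motif was found before Psmb10. The RefSeq starts of Psmb8 and Psmb9 lie inside exons of longer GENCODE transcripts, so only the match with its flanks is shown, at chr17:34198088-34198116 (plus strand) for the activation site core of Psmb8 and chr17:34187331-34187359 (minus strand) for the inverted CCAAT box of Psmb9.
Psmb8: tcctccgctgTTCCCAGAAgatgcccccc
Psmb9: ctgcaccgcgcgcagccgctgATTGGaaa

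Across the 44 entries 11.4% held the antioxidant response element core, against 10.2% of all 32851 promoters, and 31.8% held CCAAT, against 33.8%. The interferon-stimulated response element core was in 6.82% against 2.98% (Psmb3, Psmd4 and Psmd9) and the activation site core in 4.55% against 7.02% (Psmb8 and Psmg1). A match describes letters only and shows no binding.

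On the deposited scaling, the sums over both sets of catalytic subunits were lower in every KO library than in any WT library. The log2 differences were -0.24 for the immunoproteasome set and -0.22 for the constitutive set. Of single genes, 16.2% were apart in this direction. Whether the sums stay apart with library totals was not examined. The summed reads of Psmb8, Psmb9 and Psmb10 were 18969, 19796 and 18855 in WT and 17044, 15970 and 15782 in KO, and those of Psmb5, Psmb6 and Psmb7 were 13648, 16046 and 14077 in WT and 13182, 13466 and 10949 in KO. Without KO library 3 these log2 differences were -0.22 and -0.13, in an alternative added after seeing the data. The ratio of the sums was 1.39, 1.23 and 1.34 in WT and 1.29, 1.19 and 1.44 in KO. The groups overlapped, with the highest and the lowest ratio both in KO, and the log2 difference of -0.02 was smaller than the SD within groups (0.12 on the log2 scale). The log2 difference ranged from -0.09 to 0.05 when 1 library was left out.

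Within the matched pairs, Psmb8 over Psmb5 was 3.44, 2.80 and 3.26 in WT and 3.23, 2.84 and 3.90 in KO (log2 difference 0.06). Psmb9 over Psmb6 was 0.575, 0.525 and 0.594 in WT and 0.647, 0.578 and 0.680 in KO (log2 difference 0.17). Psmb10 over Psmb7 was 1.04, 1.05 and 1.02 in WT and 0.938, 0.929 and 1.01 in KO (log2 difference -0.11), the single pair whose groups did not overlap. In two-sided exact permutation tests the p-values were 0.8, 0.2 and 0.1 in that order, and 0.8, 0.3 and 0.3 when adjusted over the 3 pairs; a p of 0.1 is the smallest that 3 libraries against 3 allow.

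The immunoproteasome subunits did not shift as one. Psmb9 over Psmb8 was 0.309, 0.349 and 0.346 in WT and 0.419, 0.415 and 0.389 in KO, and Psmb9 over Psmb10 was 0.672, 0.675 and 0.706 in WT and 0.874, 0.784 and 0.852 in KO. In both ratios every KO library was above every WT library, with log2 differences of 0.28 and 0.29, whereas Psmb8 over Psmb10 overlapped (log2 difference 0.00). These 3 ratios were chosen after their values were seen and were not tested. Psmb9, Tap1 and Psmb8 lie in that order in the MHC class II region of chromosome 17, and Psmb9 overlaps Tap1 head to head on the opposite strand. Tap1, a subunit of the transporter that moves proteasome products into the endoplasmic reticulum, had 4000, 4700 and 4209 reads in WT and 5192, 5049 and 5448 in KO, with every KO library above every WT library (0.28 ± 0.09; limma adjusted p = 0.0707; DESeq2 adjusted p = 0.0374). Reads in the overlap of Psmb9 and Tap1 cannot be assigned without strand.

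**Figure D4:**
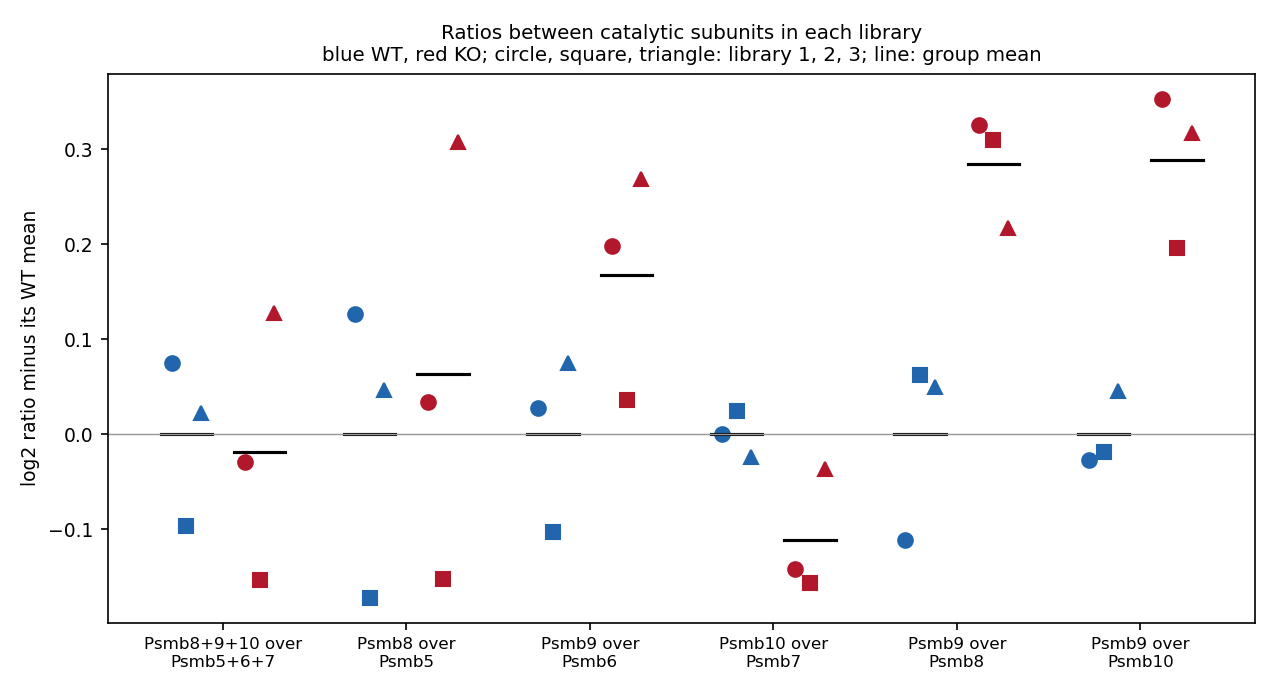
Log2 ratio between catalytic subunits in each library, minus the mean of the WT libraries for that ratio, with WT in blue, KO in red, the marker shape for the library number and a line at each group mean. The ratio of sums overlaps between the groups, and the ratios of Psmb9 to Psmb8 and to Psmb10 lie higher in all 3 KO libraries (log2 differences 0.28 and 0.29).

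In the rest of the 20S core, all 7 alpha subunits and all 4 structural beta subunits had log2 fold changes below 0, and none passed the test. The alpha subunits ran from -0.21 to -0.11. Psma3, the alpha subunit with the smallest p, had 7770, 8916 and 7622 normalised reads in WT and 6941, 7566 and 6528 in KO, which did not overlap (-0.21 ± 0.09; limma adjusted p = 0.195). The structural beta subunits ran from -0.21 to -0.08. In 1 of 4, Psmb2, all KO values were below all WT values, where the share over all genes was 16.2%. Psmb2 had 5163, 5711 and 5286 in WT and 4908, 4934 and 4120 in KO (-0.21 ± 0.09, limma adjusted p = 0.187). The median of the structural beta subunits was -0.11, and it was -0.02 without KO library 3 and -0.03 without WT library 2 or with library totals. Psma8, the alpha subunit of the testis proteasome, was detected in all libraries, at 1699, 1780 and 1597 in WT and 1630, 1554 and 1474 in KO (-0.12 ± 0.09; limma adjusted p = 0.436). Per kilobase of its principal transcript it was at 1000 reads in WT, against 12231 for its paralog Psma7, and reads may be shared between near-identical stretches of these genes.

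In the 19S particle 12 of 17 members had all KO values below all WT values, and in the 20S core 8 of 17, where the share over all genes was 16.2%; the difference between the particles was not tested. All 17 members of the 19S particle had log2 fold changes below 0, against 51.7% of all genes, and none passed the test. Among the base ATPases, Psmc4 had 7307, 8258 and 7272 normalised reads in WT and 6596, 6806 and 5622 in KO, every KO library being lower (-0.27 ± 0.10; limma adjusted p = 0.120). Psmd2, the large scaffold of the base that docks ubiquitin-like domains, had 14584, 13279 and 13809 in WT and 11931, 12209 and 10365 in KO. Its groups were apart as well, and its log2 fold change of -0.27 ± 0.09 was the most negative of the particle (limma adjusted p = 0.0842). Psmd6, a subunit of the lid, had 5747, 6077 and 5500 in WT and 5089, 4875 and 4823 in KO, with no overlap and little spread between the KO libraries (-0.23 ± 0.08; limma adjusted p = 0.0978). The 8 lid subunits ran from -0.25 to -0.16 and the 6 ATPases from -0.27 to -0.07. The upper end of the ATPases was Psmc6 alone, and the others ran from -0.27 to -0.18.

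No activator passed the test with all libraries. Psme1, an interferon-inducible 11S subunit, had 11313, 12798 and 11204 normalised reads in WT and 11169, 11301 and 10740 in KO, where the groups overlapped (-0.09 ± 0.08; limma adjusted p = 0.559). Its partner Psme2 had 5826, 6395 and 5837 in WT and 5027, 5823 and 5029 in KO, with KO library 2 just under the lowest WT library (-0.19 ± 0.09; limma adjusted p = 0.219). Psme2b, a near-identical copy of Psme2 that may take some of its reads, was at 0.02. Psme3, which forms the nuclear 11S activator, had 13962, 13886 and 13564 in WT and 11801, 12895 and 10977 in KO, without overlap (-0.22 ± 0.08; limma adjusted p = 0.134). Psme4, which encodes PA200, had 5559, 4564 and 5810 in WT and 4815, 4159 and 4339 in KO, and WT library 2 was below KO library 1. The library numbered 2 was the lowest of both groups, and without WT library 2 the gene passed the test (-0.36; limma adjusted p = 0.0369), as against -0.25 and 0.170 with it.

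No inhibitor or chaperone gene passed the test in limma. Psmf1, which encodes the inhibitor PI31, had 2611, 2674 and 2505 normalised reads in WT and 2602, 2576 and 2468 in KO (-0.03 ± 0.08; limma adjusted p = 0.865), and its sign turned with upper quartile scaling and library totals. Of 4 chaperones of 20S assembly, Psmg1 and Psmg3 had all KO values below all WT values, where the share over all genes was 16.2%. Psmg1 had 2101, 2154 and 2011 in WT and 1882, 1871 and 1659 in KO (-0.21 ± 0.09; limma adjusted p = 0.169), and Psmg3, Psmg2 and Psmg4 were at -0.23, -0.02 and 0.01. The 3 chaperones of 19S assembly ran from -0.05 to 0.06, none with groups apart, and their median turned from -0.04 to 0.05 with library totals, to 0.05 without KO library 3 and to 0.02 without WT library 2. The one with the smallest p, Psmd10, had 1106, 1228 and 1226 in WT and 1161, 1265 and 1012 in KO (-0.05 ± 0.11; limma adjusted p = 0.806). Psmc3ip, which is no proteasome gene, had 696, 713 and 698 in WT and 745, 778 and 610 in KO (0.01 ± 0.12; limma adjusted p = 0.971).

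Levels between members were compared as normalised reads per kilobase of the longest principal transcript. In WT the highest were Psma7 at 12231 ± 1026, Psme1 at 10586 ± 801 and Psma6 at 10130 ± 1127 (SD, n = 3 each). Their ranges of mean ± SD overlapped, which takes no account of the libraries that the genes share. The order of these genes within each library was not compared. Of the catalytic subunits, Psmb6 was highest at 7854 ± 863, followed by Psmb8 at 6468 ± 143, Psmb7 at 4286 ± 189, Psmb10 at 3930 ± 222, Psmb5 at 3727 ± 422 and Psmb9 at 2607 ± 145. In KO the order of the first 3 was the same, at 6935 ± 696, 5272 ± 234 and 3773 ± 385, followed by Psmb10 at 3192 ± 188, Psmb5 at 2916 ± 419 and Psmb9 at 2588 ± 172. Of the neighbours in this order, Psmb7 and Psmb10 in WT, Psmb10 and Psmb5 in both groups and Psmb5 and Psmb9 in KO had overlapping ranges of mean ± SD. Such ranges do not show that the levels were equal, because both genes were measured in the same libraries.

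In the list of proteasome-bound ubiquitin handling 2 of 15 tested genes fell and 0 rose, where 3.43% of all genes were called lower and 5.32% higher. The list median was -0.09 on the log2 scale. Ubqln4, which encodes a shuttle that carries ubiquitinated proteins to the proteasome, had 5640, 5172 and 5554 normalised reads in WT and 4198, 4264 and 4064 in KO, with no overlap between the groups (-0.38 ± 0.08 SE; limma adjusted p = 0.0164). Its relative Ubqln2 fell as well, from 3389 ± 209 to 2626 ± 221 (SD, n = 3 each; -0.37 ± 0.09 SE; limma adjusted p = 0.0373). Ddi2, the protease that activates NRF1, and Rad23b did not pass in limma (-0.35 and -0.30, limma adjusted p = 0.0595 and 0.0707). DESeq2 called Ddi2 (DESeq2 adjusted p = 0.0342) but not Rad23b (DESeq2 adjusted p = 0.0574). Of 6 ubiquitin and E1 genes Uba1, the main ubiquitin-activating enzyme, fell from 27978 ± 1741 to 21672 ± 1777 (-0.37 ± 0.09; limma adjusted p = 0.0338), and the other 5 lay between -0.07 and 0.02. Leaving out WT library 1, WT library 3 or KO library 3 ended all 3 calls, with limma adjusted p of 0.0847, 0.0782 and 0.0725 for Ubqln4, 0.164, 0.0793 and 0.133 for Ubqln2 and 0.150, 0.119 and 0.112 for Uba1. The call of Ubqln2 was also lost without WT library 2 or KO library 1 (limma adjusted p = 0.0519 and 0.0828) and that of Uba1 without KO library 2 (limma adjusted p = 0.0652). With library totals the limma adjusted p was 0.0652 for Ubqln2 and 0.0698 for Uba1.

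In limma no gene was called in the other lists. Among 5 tested subunits and assembly factors with other symbols, the 20S maturation factor Pomp was at -0.20 and the ubiquitin receptor Adrm1 at -0.14 (limma adjusted p = 0.165 and 0.365). Of 9 genes for transcription factors and their processing 5 were above 0 and 4 below, with a median of 0.005, and Nfe2l1, which encodes NRF1, was at 0.005 (limma adjusted p = 0.984). The smallest p-values of this list were not past the threshold: Nfya and Nfyc of the CCAAT-binding factor were at -0.28 and -0.15 (limma adjusted p = 0.209 and 0.310). The 18 genes of interferon control and peptide supply had a median of 0.11, in the other direction from Psmb8 and Psmb10. The smallest p-values were those of Tap1, described above, and of Nlrc5, the class I transactivator, which had 652, 1065 and 747 reads in WT and 994, 1675 and 1980 in KO, where WT library 2 overlapped KO library 1 (0.89 ± 0.29; limma adjusted p = 0.119). DESeq2 called Nlrc5 (adjusted p = 0.00219), and edgeR did not (adjusted p = 0.114). In limma 2 of the 18 had an unadjusted p under 0.05, against 25.2% of all genes tested.

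**Figure D5:**
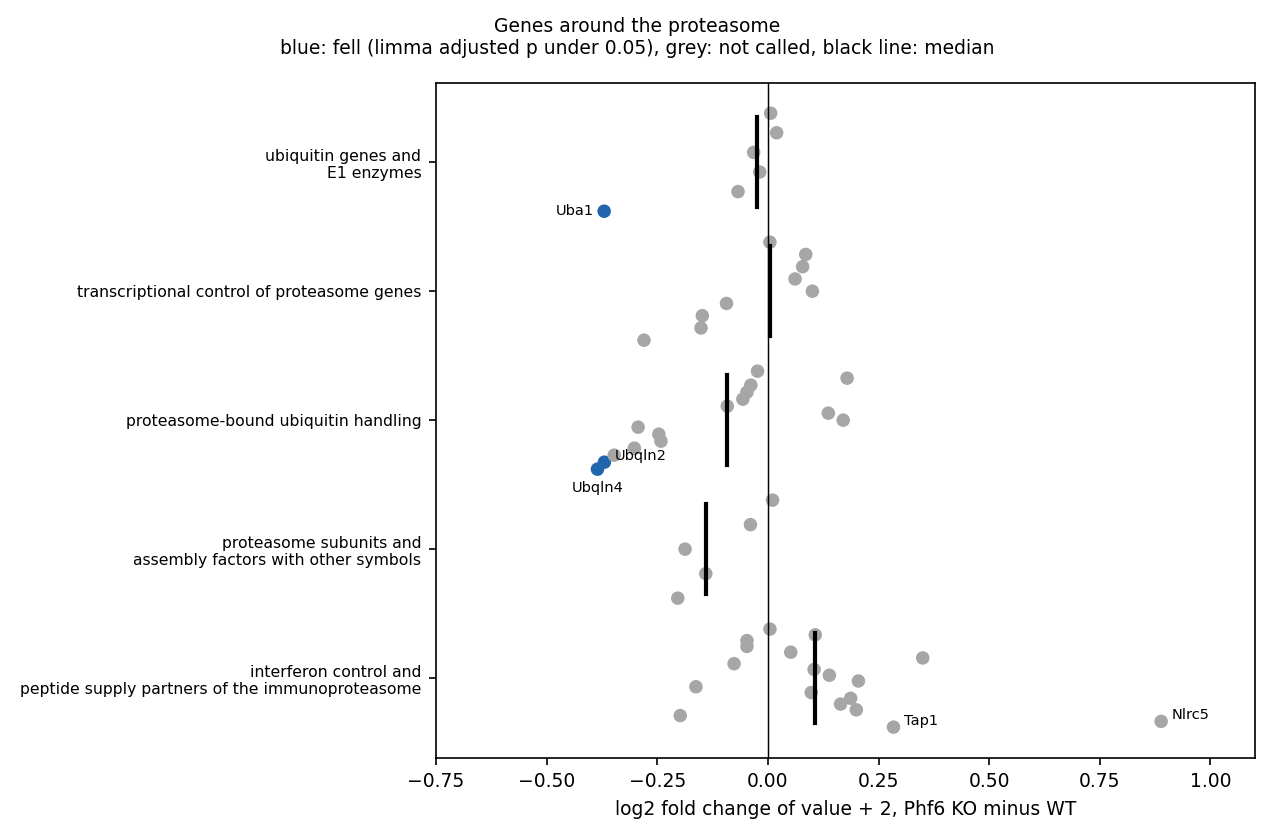
Log2 fold change, KO minus WT, of genes around the proteasome in 5 lists, 1 point per gene, where blue marks a gene that fell, grey one without a call and the black bar the median of the list. Ubqln4 (-0.38), Ubqln2 and Uba1 are blue, and the list of interferon control and peptide supply has its median at 0.11.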

How the data were processed

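The authors deposited 1 table of signal per gene and library. In each library the values are whole multiples of a single step (100% of values within a tolerance of 0.01), so they are counts that had been scaled by a size factor. The tools named, per the submitters' processing notes, are STAR 2.6.0a, featureCounts, bcl2fastq 1.8.4 and DESeq2, and the build is GRCm38. The annotation and the strand setting: not given in the sources used here. Columns were matched to samples by name. The 8 rows without a gene identifier (at most 0.00106% of reads) were left out. Positions came from GENCODE M21, which held 23277 of 23306 identifiers.

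Groups were compared in R 4.3.3 by limma 3.58.1, with trend and robust empirical Bayes, on log2(value + 2). It covered the 17993 genes that reached a value of 10 in 3 or more libraries, with Benjamini-Hochberg adjustment over all of them. EdgeR 4.0.16 and DESeq2 1.42.0 were run on recovered reads. In simulated counts for 17993 genes in 3 against 3 libraries, 88 of 100 genes changed by 2-fold and 59 of 100 changed by 1.5-fold were recovered, and 8 of 155 calls were false. The simulation gave every gene the same dispersion and drew the libraries independently. It held no change as small as the median of the members, so these rates need not carry over to the members. Alternatives covered scaling, pseudocount, filters, tools, the replicate number as a block and each library left out.

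Members, lists and the rule for named genes (the catalytic subunits, called members, the smallest p of each role and list) were chosen with earlier results of these data known; other genes named were chosen after their values were seen. Paaf1, a chaperone of 19S assembly, was not analysed here. One gene of the list of ubiquitin handling is not reported here, and that list's counts and median leave it out.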

Additional observations from a re-analysis of the deposited data

How the results depend on the processing

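The median of the members kept its sign under all alternatives, from -0.22 without KO library 2 to -0.10 with library totals. The number of members called lower, 1 with the main settings, was 0 with upper quartile scaling and with library totals, 2 with DESeq2, 4 at an adjusted p threshold of 0.1 and 0 to 1 when 1 library was left out. Over all genes 1575 were called, 2705 at the threshold of 0.1 and 253 to 1941 when 1 library was left out, the fewest without KO library 3 and the most without WT library 2. With the replicate number as a block 2568 genes were called, 1109 of them lower, with 4 members among these (Psmb5, Psmb8, Psmb10 and Psmc4). Deviations of same-numbered libraries had correlations of 0.01, 0.50 and 0.14. The pair of WT library 2 and KO library 2 had the highest correlation of all pairs, whereas WT library 3 correlated best with KO library 1 (0.38). What same-numbered libraries share beyond the number is not stated in the labels and was not tested.

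Among 32 named genes followed under every alternative, 4 changed sign in some, each with a small log2 fold change. Over all 49 members, 45 were below 0 with the main settings and 38 with library totals, so members outside the named genes turned as well. Psmb9 went from -0.01 to 0.0237 (upper quartile), 0.0723 (library totals), 0.00819 (edgeR) and 0.0037 (DESeq2), with -0.065 to 0.0252 when 1 library was left out. Psmf1 went to 0.00829 and 0.0569 (upper quartile and library totals), Psmd10 to 0.0294 (library totals) with -0.128 to 0.0324 on leaving out, and Psmc3ip ranged from -0.0589 to 0.116 on leaving out. Causes were not tested. The lowest mean of a member was 536 normalised reads.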

Other observations

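Psmb11, the thymus-specific catalytic subunit that fell under the minimum mean, had 4.004, 2.96 and 8.13 normalised reads in WT libraries 1 to 3 and 9.39, 3.12 and 3.01 in KO libraries 1 to 3, so the groups overlapped. Its neighbour Psmb5 on chromosome 14 was at 3351 ± 380 in WT and 2622 ± 377 in KO (SD, n = 3 each). The pseudogene Psmb6-ps2 had 14.01, 11.9 and 6.33 normalised reads in WT and 11.5, 11.4 and 2.01 in KO. Psmb6 itself was at 6268 ± 689 in WT and 5534 ± 556 in KO.

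With the 11S activator genes added to the immunoproteasome sum, the ratio of Psmb8, Psmb9, Psmb10, Psme1 and Psme2 to Psmb5, Psmb6 and Psmb7 was 2.65, 2.43 and 2.55 in WT and 2.52, 2.46 and 2.88 in KO, with KO library 3 the highest and the other KO libraries within the WT range.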
